A study of Mus musculus with 16 samples.

Results

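The histone mark H3K27me3 was examined at 8 adipocyte genes in CCN6KOT cells, a mouse breast cancer line of primary tumour cells that lack CCN6 by knockout, from tumours labelled spindle metaplastic. The 8 genes, of 21631 protein-coding genes tested, were chosen by their known role in adipocytes with earlier results of these data in view. Retn was selected on its peaks, which had been seen in no dnTCF4 library and in 3 control libraries, so its values are a description with no test. A gene was called marked in a library when a called peak covered at least 1 base of its body extended by 2 kb on each side (build mm10), and peaks up to 50 kb further out were recorded as neighbours. Of the 8 genes, Retn lies on chromosome 8, while Lep, Pparg and Cidec lie on chromosome 6, Fabp4 on chromosome 3, Plin1 on chromosome 7, Cfd on chromosome 10 and Adipoq on chromosome 16.

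The dnTCF4 cells were transduced with a lentivirus for dnTCF4, a dominant negative TCF4, which blocks the DNA-binding partner of beta-catenin. The control cells were transduced with a control lentivirus per the growth protocol, while the series' design text calls them parental. The protocols give puromycin selection for both, and both are CCN6KOT cells, so no group with intact CCN6 enters the comparison. Each group has 4 H3K27me3 libraries, numbered 1 to 4. Separate cultures are not stated for them, so a p-value measures the spread between libraries, which may be technical. The promoter driving dnTCF4 was not stated either, the 8 IgG libraries were not analysed here, and peak lists carry no expression values by which to check the cell type.

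H3K27me3 is written by the Polycomb enzyme EZH2 and is associated with genes that are kept silent. Adipocyte identity rests on the nuclear receptor PPAR-gamma, which switches on genes for fatty acid carriage, lipid droplets and the secreted adipokines. In mouse preadipocyte cell lines, Wnt signalling through beta-catenin and TCF holds cells in the undifferentiated state and keeps Pparg off. In the mammary gland, adipocytes form the fat pad around the epithelium.

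The peak lists differed greatly in length, and this governs how many genes a library can mark. The dnTCF4 lists held 21492, 191, 4885 and 1838 peaks and the control lists 426, 738, 54070 and 22745, in the order of their numbers. The log10 peak number averaged 3.39 ± 0.861 in dnTCF4 libraries and 3.65 ± 1.05 in control libraries (SD, n = 4 each; difference -0.255, two-sided exact permutation p = 0.714). Read depth is unknown, because the lists hold no read counts, so a gene without a peak may still carry the mark. Chromosome 8, which makes up 4.91% of annotated length, held between 2.62% and 4.16% of the peaks of the dnTCF4 libraries and between 6.32% and 7.33% of those of the control libraries. By covered length its share ran from 0.924% to 3.35% in dnTCF4 libraries and from 3.35% to 7.04% in control libraries, so that dnTCF4 1 and control 1 met. The part of these chromosome-wide values in the Retn values was not tested.

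The promoter sequences of 4 genes are shown here because they frame where the peaks did and did not fall. Each is the stretch of 250 bases before an annotated start, 5′ to 3′ along the gene, from RefSeq (GRCm38.p6), with CpG dinucleotides in capitals, since CpG-rich promoters are the classical seat of Polycomb in mammals. Retn had peaks in its body in 3 libraries, Lep had 1 peak in its body and Pparg had none. Cd36, a fatty acid transporter of the wider adipocyte list, was the only listed gene with a peak over a promoter window of the reference table. That table holds windows for 7 of the 8 genes and for 64 of the 86 genes of the wider list, so the promoters of the rest were not examined. The stretches lie at chr8:3655520-3655769 on the plus strand for Retn, at chr6:29059971-29060220 on the plus strand for Lep, at chr6:115360894-115361143 on the plus strand for the first of the Pparg starts and at chr5:17835897-17836146 on the minus strand for Cd36.
Retn: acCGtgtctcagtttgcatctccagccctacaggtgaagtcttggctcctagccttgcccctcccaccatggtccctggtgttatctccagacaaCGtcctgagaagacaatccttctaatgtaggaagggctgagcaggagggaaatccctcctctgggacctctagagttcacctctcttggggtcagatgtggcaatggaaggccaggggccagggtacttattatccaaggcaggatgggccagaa
Lep: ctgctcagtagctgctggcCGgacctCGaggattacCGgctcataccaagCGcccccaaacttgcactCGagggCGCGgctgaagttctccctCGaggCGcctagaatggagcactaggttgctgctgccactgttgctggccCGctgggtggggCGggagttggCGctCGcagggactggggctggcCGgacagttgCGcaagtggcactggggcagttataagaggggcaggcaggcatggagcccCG
Pparg: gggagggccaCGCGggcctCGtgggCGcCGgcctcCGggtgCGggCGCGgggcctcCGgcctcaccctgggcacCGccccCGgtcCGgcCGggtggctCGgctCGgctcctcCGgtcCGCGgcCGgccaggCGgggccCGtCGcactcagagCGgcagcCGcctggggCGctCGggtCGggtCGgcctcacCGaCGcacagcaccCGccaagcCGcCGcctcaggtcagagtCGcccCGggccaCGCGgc
Cd36: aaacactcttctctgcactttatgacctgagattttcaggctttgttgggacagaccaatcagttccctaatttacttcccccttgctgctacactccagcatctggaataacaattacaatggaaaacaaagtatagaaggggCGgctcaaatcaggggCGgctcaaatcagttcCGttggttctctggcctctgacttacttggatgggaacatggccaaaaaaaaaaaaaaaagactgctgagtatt
The printed stretch held 2 CpG for Retn, 16 for Lep, 38 for Pparg and 3 for Cd36.

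Of the 8 adipocyte genes, 3 carried a peak in at least 1 library, namely Retn, Lep and Plin1, and 5 carried none in any library, namely Adipoq, Cfd, Pparg, Fabp4 and Cidec. No peak in any dnTCF4 library touched the extended body of any of the 8 genes. The extended bodies held 9 peaks in all, and all 9 came from control libraries, with 1 in control 1, 6 in control 3 and 2 in control 4. Over all protein-coding genes, 21.4% carried a peak in at least 1 library. The shares of all genes marked were 13.7%, 0.254%, 5.13% and 2.41% in dnTCF4 1 to 4 and 0.675%, 1.06%, 20.1% and 12.5% in control 1 to 4, so 0 of 8 genes in the dnTCF4 libraries is not read as particular to these genes. The 8 genes had 3 marked members in control 3, 1 in control 4 and 1 in control 1, and without control 3 only Retn was marked.

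**Figure D1:**
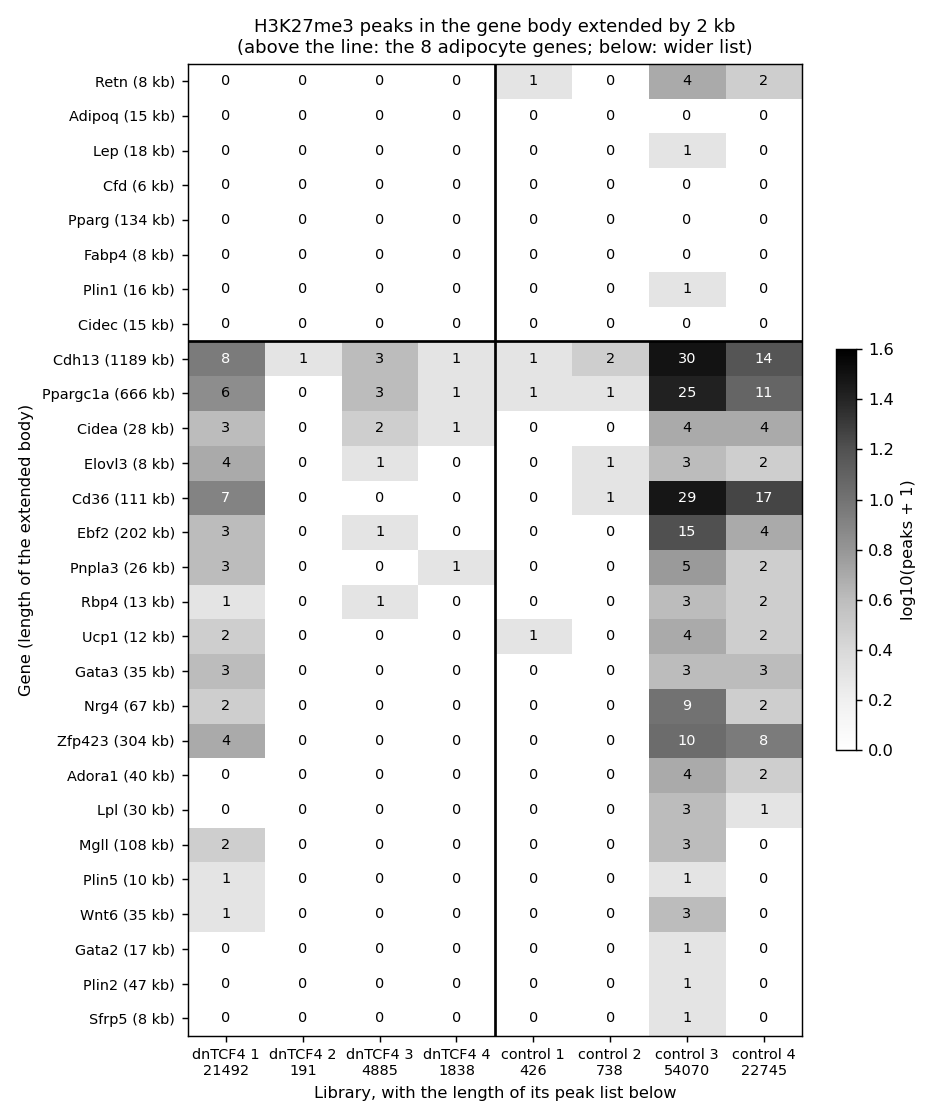
Number of H3K27me3 peaks in the gene body extended by 2 kb, by gene (rows, with the length of the extended body) and library (columns, dnTCF4 left of control, with the number of peaks of each list), for the 8 adipocyte genes above the line and the 20 marked genes of the wider adipocyte list below it. All 4 dnTCF4 columns are at 0 for the 8 genes, while Retn has 1, 4 and 2 peaks in control 1, control 3 and control 4.

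Retn encodes resistin, an adipokine secreted by mouse adipocytes that is named for its effect on insulin action. Its body runs from 3655770 to 3659818 on the plus strand of chromosome 8, and the extended body is 8.05 kb long. Peaks covered 0 bases of the extended body in each of the 4 dnTCF4 libraries, against 218, 0, 1260 and 964 bases in control 1 to 4. Control 2, with 738 peaks, had none, so the groups overlapped at 0.

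The peaks of different control libraries fell at the same place inside Retn. Control 1 had a peak from 3658552 to 3658769, control 3 from 3658550 to 3658867 and control 4 from 3658527 to 3659159, and the stretch they share is 218 bases long and begins 2.78 kb after the Retn start. Control 3 had 2 further peaks inside the gene, beginning 0.623 and 1.79 kb after the start. Control 3 and control 4 also shared 677 bases beginning at 3661488, which lies 1670 bases beyond the gene's far end and just inside the extension of 2 kb. Exon and intron limits were not used here, so these peaks are placed by distance only.

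The peaks inside Retn were 218 bases wide in control 1, 281, 325 and 318 in control 3 and 633 in control 4, and by −log10 q they ranked from near the top to the middle of their own lists. The fold enrichment and the −log10 q of each peak are the authors' values. The peak of control 4 inside Retn had a fold enrichment of 4.24 and a −log10 q of 2.96, which ranked 562 of 22745 in that list. That of control 1 had 4.58 and 1.45 and ranked 205 of 426. The 3 peaks of control 3 inside Retn had fold enrichments of 3.22, 3.38 and 2.88 and −log10 q of 1.89, 2.14 and 1.80. Over that list the medians were 3.01 and 1.42. The fold enrichment of 2.88, at the place shared with control 1 and control 4, was exceeded by 76.5% of that list. Within the extension, the peaks of control 3 and control 4 beyond the far end had −log10 q of 1.35 and 1.31. These were exceeded by 57.9% and 77.2% of the peaks of their lists. With peaks of −log10 q of at least 2 only, Retn was marked in control 3 and control 4. It stayed in no dnTCF4 library, which a filter that removes peaks cannot change.

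Immediately outside the extension the dnTCF4 cells did have a peak. In dnTCF4 1 a peak of 192 bases ran from 3652365 to 3652556, 3.21 kb before the Retn start, with a fold enrichment of 3.79 and a −log10 q of 1.58. Control 4 had a peak over the same place, from 3652389 to 3652727, and the peaks of both libraries shared 168 bases. Control 3 had a peak beside it, from 3652733 to 3653321, that overlapped neither. With the body extended by 5 kb, Retn was marked in 1 dnTCF4 and 3 control libraries, while with no extension it was marked in 0 dnTCF4 and 3 control libraries. Just inside the limit lay the peaks of control 3 and control 4, 1665 and 1670 bases from the body, and just outside lay those of dnTCF4 1, at 3214 bases, and of control 3 and control 4, at 2449 and 3043 bases.

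Beyond 5 kb, only control libraries had peaks near Retn. With 50 kb added to each side, dnTCF4 1 had 1 peak covering 192 bases and dnTCF4 2, 3 and 4 had none, while control 1 had 1 peak, control 2 none, control 3 10 peaks covering 6465 bases and control 4 5 peaks covering 2387 bases. A pair of peaks from control 3 and control 4 shared 531 bases beginning 3221 bases beyond the far end of the gene. The remaining peaks of control 3 and control 4 lay between 32054 and 51063 bases beyond it.

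**Figure D2:**
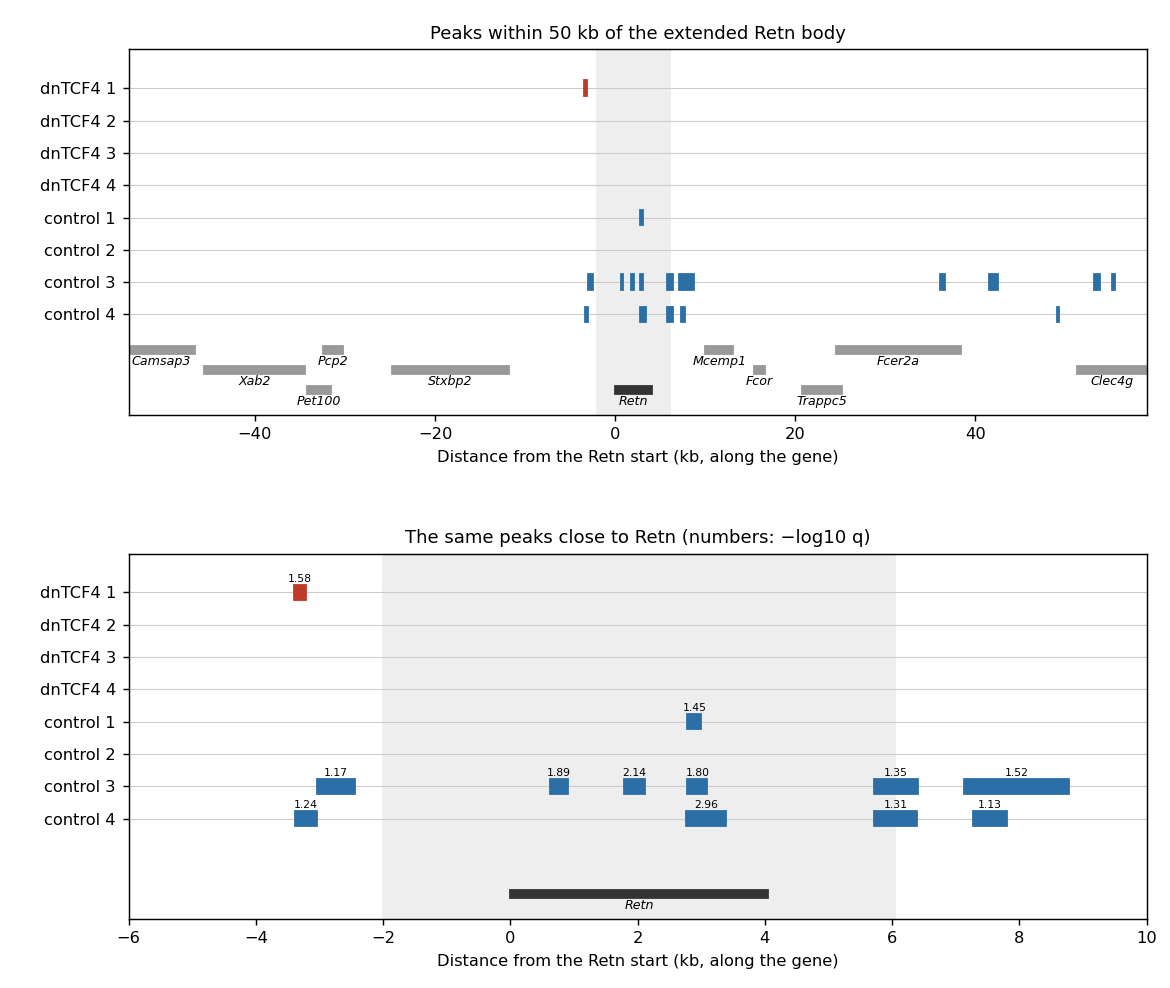
Peaks around Retn in each library (rows, dnTCF4 above control), by distance in kb from the Retn start, with 50 kb to each side of the extended body in the upper panel and the near region in the lower panel, where the number above a peak is its −log10 q. The grey band is the gene body extended by 2 kb and the bars at the bottom are protein-coding genes. The peak of dnTCF4 1 stands 3.21 kb before the start, outside the band, and the peaks of control 1, control 3 and control 4 line up 2.78 kb after it.

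The neighbours of Retn did not share its pattern as a block. Of 10 protein-coding genes that reach within 50 kb of its extended body, 4 were marked in any library, against 21.4% of all genes. Camsap3, which encodes a protein that binds microtubule minus ends, was marked in dnTCF4 1 and dnTCF4 3 and in control 3 and control 4. Mcemp1, Fcer2a, which encodes the low-affinity IgE receptor, and Clec4g, which encodes a C-type lectin, were marked in control 3 only. Mcemp1 is the nearest gene beyond Retn, and its extended body is touched by the control 3 peak that begins at 3662895. The control 4 peak that overlaps this one ends at 3663569, just short of the extended body of Mcemp1. Stxbp2, the nearest gene before Retn, was marked in no library.

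Few genes shared the pattern of Retn. A peak in at least 2 dnTCF4 and 0 control libraries was found for 13 genes, which is 0.0601% of 21631. A peak in 0 dnTCF4 and at least 2 control libraries was found for 433 genes, or 2.00%, and in 0 dnTCF4 and at least 3 control libraries for 2 genes, or 0.00925%. These sets rest on few libraries: without dnTCF4 1 they held 0 and 1534 genes, without dnTCF4 3 the first held 1, without control 3 they held 79 and 2, and without control 4 the second held 2. With lists of equal length, which only 3 dnTCF4 and 2 control libraries could give, they held 105 and 43 genes, so a gene needed 2 of 3 or 2 of 2 libraries. Retn was picked for this pattern, so nothing is read from its place there. The only other gene marked in exactly control 1, control 3 and control 4 was Cxcr1, a chemokine receptor gene on chromosome 1. Peaks covered 4.02%, 14.7% and 8.17% of the extended body of Cxcr1 in these libraries, and over the 8 libraries its covered share differed from that of Retn by a mean of 0.761 percentage points.

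Nearly every gene marked in control 1 was marked in dnTCF4 1 too. Of 146 genes marked in control 1, 144 were also marked in dnTCF4 1, and Retn and Cxcr1 were the 2 marked in no dnTCF4 library. Retn was selected for having no dnTCF4 peak, so nothing is read from its being 1 of these 2. Of 2632 genes marked in both control 3 and control 4, 82.9% were also marked in dnTCF4 1, whose list is close in length to that of control 4. The 3 dnTCF4 and 2 control libraries with over 1000 peaks were also each held to their 1838 best peaks. Retn was then marked in 0 dnTCF4 libraries and 1 control library, where the 0 was fixed because shortening a list only removes peaks.

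Across all genes, no difference between dnTCF4 and control libraries passed the test, and after adjustment none could have passed. Fisher's exact test on the number of marked libraries, adjusted by the Benjamini-Hochberg method over 21631 genes, gave 0 genes with an adjusted p under 0.05 and 0 with an unadjusted p under 0.05. The lowest p was 0.143, where 4 libraries against 4 allow 0.0286. An adjusted p under 0.05 would have needed more genes at 0.0286 than the 4626 with a peak in any library. So 0 genes after adjustment was fixed in advance, and nothing is read from it.

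Of the other adipokines among the 8 genes, Lep was marked in 1 library and Adipoq and Cfd in none. Lep encodes leptin, the hormone by which adipocytes report energy stores. Its body runs from 29060221 to 29073876 on chromosome 6, and peaks covered 0 bases of the extended body in every dnTCF4 library, against 0, 0, 938 and 0 bases in control 1 to 4. The single peak, in control 3, ran from 29063530 to 29064467, beginning 3.31 kb after the Lep start, with a fold enrichment of 3.38 and a −log10 q of 1.92. A second peak of control 3 lay 50045 bases before the gene, within the neighbourhood of the extended body. The nearest peaks to Lep lay 61.4, 61.4 and 91.9 kb away in dnTCF4 1, 3 and 4, and 18573, 91.9 and 61.3 kb away in control 1, 2 and 4, while dnTCF4 2 had no peak on chromosome 6. A peak in control 3 and no other library was found for 5.30% of all genes.

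Adipoq encodes adiponectin, an adipokine that raises insulin sensitivity. Its extended body, 15.4 kb on chromosome 16, held no peak in any library. Within 50 kb there was 1 peak in dnTCF4 3, from 23180829 to 23181086, and 1 in control 3, from 23180422 to 23181087, both inside the long non-coding RNA gene C730014E05Rik. These peaks overlap, and they lie 22.9 and 22.5 kb beyond the Adipoq body in dnTCF4 3 and control 3. Cfd encodes adipsin, a complement protease that mouse adipocytes secrete in quantity. It lies in a gene-dense stretch of chromosome 10 with 8 protein-coding neighbours, and neither Cfd nor any of them was marked. The nearest peak to Cfd lay 176, 41421, 607 and 2182 kb away in dnTCF4 1 to 4, and 18079, 236 and 297 kb away in control 2, 3 and 4, while control 1 had no peak on chromosome 10.

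Pparg encodes the nuclear receptor that drives adipocyte differentiation. Its body runs from 115360879 to 115490404 on chromosome 6, and the extended body, the longest of the 8 at 134 kb, held no peak in any library. Among the 2549 protein-coding genes with an extended body over 100 kb, 38.7% were marked in at least 1 library. No peak lay within 50 kb of it either, and no other protein-coding gene reaches into that neighbourhood. The nearest peaks lay at nearly the same distance in the longest lists, at 146 kb in dnTCF4 1 and at 146 kb in both control 3 and control 4.

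Of Fabp4, Plin1 and Cidec, the genes of fatty acid carriage and lipid droplets among the 8, only Plin1 had a peak in its extended body, in 1 library. Fabp4 encodes the adipocyte fatty acid binding protein and lies on chromosome 3 among other members of its family. No library had a peak in its extended body. Control 3 had peaks 16723 and 45815 bases from the gene, the farther one at Fabp12. The nearest peak lay 274, 572 and 30900 kb away in dnTCF4 1, 3 and 4, while dnTCF4 2 had none on chromosome 3. In control 1, 2 and 4 it lay 86120, 26936 and 274 kb away. Plin1 encodes perilipin 1, the coat protein of the adipocyte lipid droplet, and peaks covered 0 bases of its extended body in every dnTCF4 library, against 0, 0, 279 and 0 bases in control 1 to 4. That peak of control 3 lay 0.922 kb beyond the far end of Plin1, and its −log10 q of 1.05 was exceeded by 95.5% of the peaks of that list. Cidec encodes a protein of the droplet surface that enlarges droplets, and no library had a peak within 50 kb of its extended body. None of the 8 neighbours of Cidec was marked. Its nearest peak lay 1611, 1628 and 3361 kb away in dnTCF4 1, 3 and 4, while dnTCF4 2 had none on chromosome 6. In control 1 to 4 it lay 65775, 3082, 232 and 934 kb away.

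**Figure D3:**
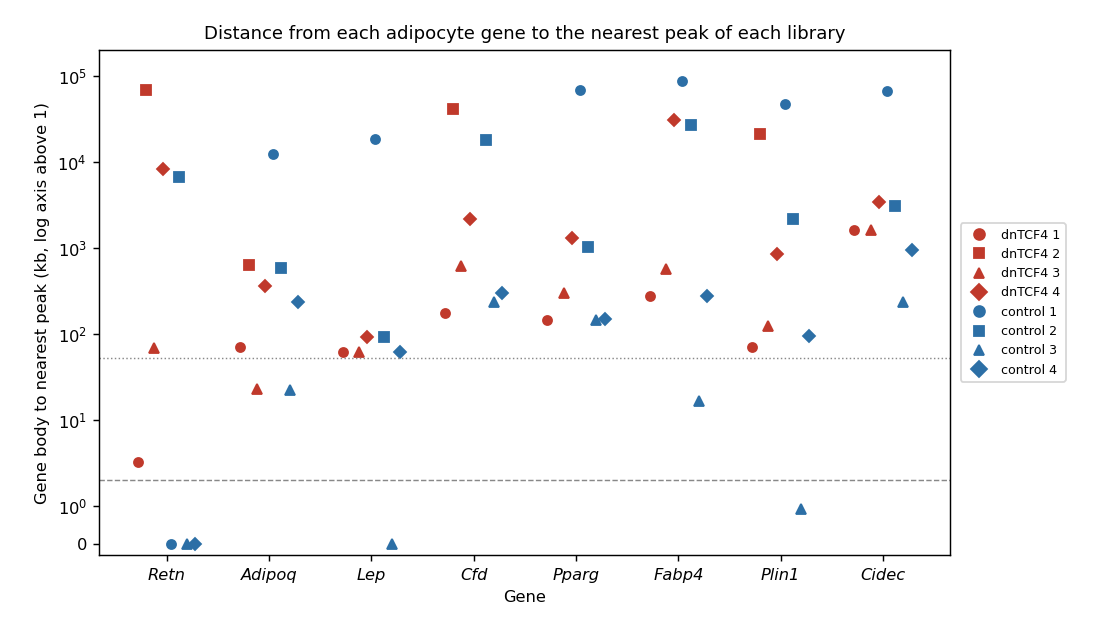
Distance in kb from the body of each adipocyte gene to the nearest peak of each library (log axis above 1 kb, dnTCF4 in red left of control in blue), with the extension of 2 kb dashed and the outer limit of the neighbourhood dotted. Points at 0 are peaks inside the gene, and a library with no peak on the chromosome has no point. Retn has the only dnTCF4 point below 5 kb, at 3.21 kb.

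Counting peaks in the neighbourhoods as well, 3 of the 8 genes had no peak in any library, namely Cfd, Pparg and Cidec, where 42.1% of all protein-coding genes had none. In dnTCF4 1 and in dnTCF4 3, 1 of the 8 loci held a peak, namely Retn in dnTCF4 1 and Adipoq in dnTCF4 3, and in control 1, control 3 and control 4 there were 1, 5 and 1. In control 1 and in control 4 that 1 was Retn, which was selected on its peaks. The share of all genes with a peak in such a neighbourhood was 42.5%, 1.21%, 17.5% and 9.91% in dnTCF4 1 to 4. In control 1 to 4 it was 2.82%, 4.41%, 55.9% and 39.4%. The median gene lay 78.6 kb from a peak in dnTCF4 1, and 37.6 kb in control 3 and 91.3 kb in control 4.

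No promoter of the 8 genes lay under a peak. The reference table holds 10 promoter windows of 300 bases for 7 of the genes, and each had 0 libraries with a peak over it. Over all 21045 windows, 1.95% lay under a peak in at least 1 library. The Retn, Cfd and Plin1 windows held 2 CpG each, with 11.1% of all windows holding fewer, and that of Adipoq held 0. Cidec had windows of 6 and 7 CpG and Lep one of 19. Pparg had windows of 44, 13 and 2 CpG at its annotated starts, and 97.1% of all windows held fewer than the first of these.

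CpG-rich promoters were not where these peaks fell in general. Of the windows with 0 to 4 CpG, 4.33% lay under a peak in any library, and of those with 26 to 67 CpG, 0.104%. The Cd36 window printed above, with 3 CpG, lay under a peak in control 3 and control 4 and in no dnTCF4 library. The letters AGGTCA, the repeat unit bound by PPAR-gamma and its partner RXR, occurred on either strand in 2 Pparg windows and in the Cd36 window, where 14.6% of all windows hold them. The letters CTTTGAT, a form of the TCF/LEF motif, occurred on either strand in none of the 10 windows of the 8 genes, where 3.25% of all windows hold them.

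**Figure D4:**
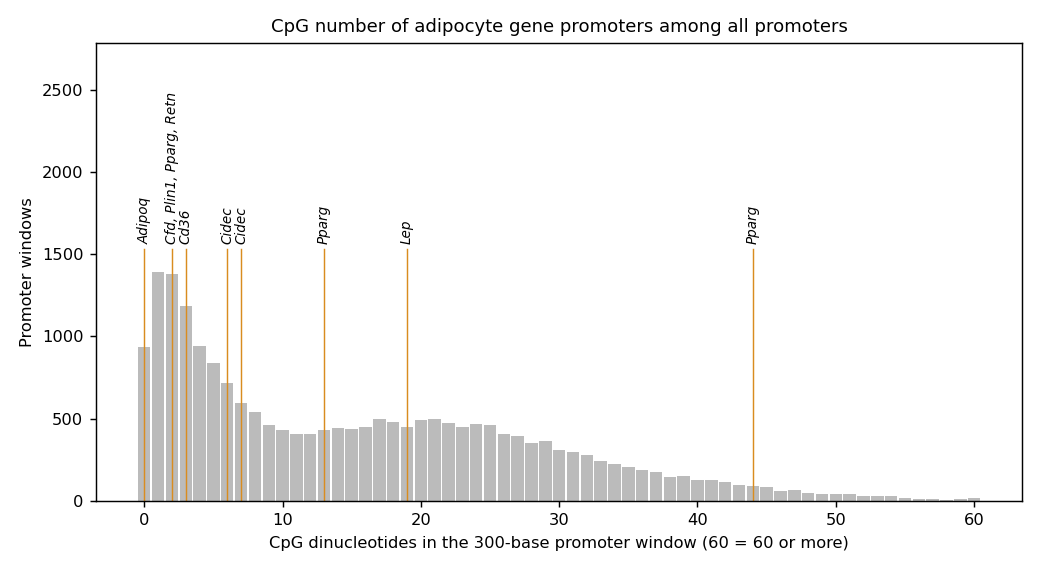
Number of promoter windows (vertical axis) by their number of CpG dinucleotides in 300 bases (horizontal axis), over 21045 windows, with orange lines at the windows of the adipocyte genes and at the Cd36 window under peaks. Retn, Cfd and Plin1 stand at 2 CpG in the CpG-poor part, and Pparg has windows at 44, 13 and 2.

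A wider list of 86 other genes of adipocyte biology gives the mark elsewhere in the programme. In this list 20 genes (23.3%) were marked in at least 1 library, against 21.4% of all genes, and the median extended body was 19.4 kb, against 21.3 kb for all genes. Per library, 15, 1, 6 and 4 of the 86 were marked in dnTCF4 1 to 4 and 3, 4, 20 and 14 in control 1 to 4. As shares these are 17.4%, 1.16%, 6.98% and 4.65% in dnTCF4 libraries and 3.49%, 4.65%, 23.3% and 16.3% in control libraries. All 20 were marked in control 3. None of the 86 passed the test across all genes, which after adjustment could call no gene.

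**Figure D5:**
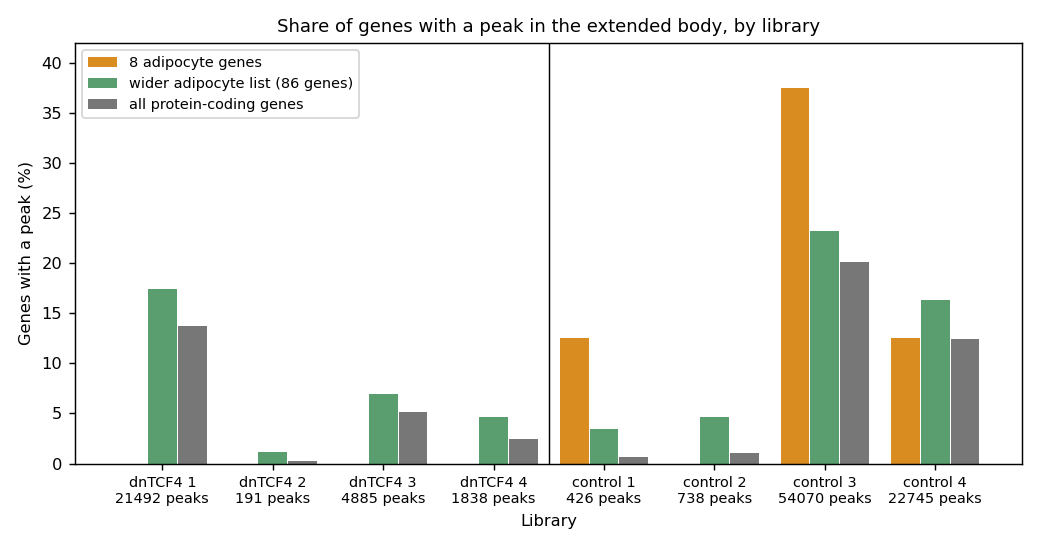
Share of genes with a peak in the extended body (percent, bars from 0) in each library, dnTCF4 left of control, for the 8 adipocyte genes, the 86 genes of the wider adipocyte list and all protein-coding genes. The wider list lies above all genes in each library, at 17.4% against 13.7% in dnTCF4 1 and 23.3% against 20.1% in control 3. In control 1 it is at 3.49%, on 3 genes, against 0.675%, and in dnTCF4 2 at 1.16%, on 1 gene, against 0.254%. That gene is Cdh13, with an extended body of 1189 kb, and it is also among the 3. The differences between the list and all genes were not tested, and the list was chosen with earlier results of these data known. The 8 genes are at 0% in the 4 dnTCF4 libraries.

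By role, 3 of 17 adipocyte transcription factors were marked, as were 8 of 31 genes of lipid storage and turnover, 3 of 13 adipokines, 2 of 8 receptors, 1 of 3 thermogenic genes and 3 of 14 genes that restrain adipogenesis or mark progenitors. Cebpa, Cebpb and Cebpd, the C/EBP factors that act with PPAR-gamma, were among the unmarked. So were the resistin-like genes Retnla, Retnlb and Retnlg. Of the 20 marked genes, 1 was marked in more dnTCF4 than control libraries, 12 in more control than dnTCF4 libraries and 7 in equal numbers. Over all genes with a peak these shares were 11.6%, 61.9% and 26.5%.

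Of 12 genes of the list with an extended body over 100 kb, 6 were marked, and Ebf1, Prdm16, Acaca, Insr, Elovl6 and Lepr were not. Cdh13, which encodes T-cadherin, a receptor for adiponectin, was marked in 4 dnTCF4 and 4 control libraries over an extended body of 1189 kb. Ppargc1a, a coactivator of PPAR-gamma in thermogenesis and mitochondrial biogenesis, was marked in 3 dnTCF4 and 4 control libraries over 666 kb. Ebf2, a transcription factor of brown adipocyte precursors, was marked in 2 libraries of each group over 202 kb. Over all genes the share marked in any library ran from 13.4% for extended bodies under 10 kb to 38.7% for those over 100 kb.

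Short genes were marked as well, and in both groups. Elovl3, a fatty acid elongase of brown fat, has an extended body of 7.80 kb, close to that of Retn. Peaks covered 1084, 0, 844 and 0 bases of it in dnTCF4 1 to 4, and 0, 303, 696 and 851 bases in control 1 to 4. Ucp1 encodes the uncoupling protein of brown fat and, like Retn, lies on chromosome 8. Peaks covered 2527, 0, 0 and 0 bases of its extended body of 12.1 kb in dnTCF4 1 to 4, and 193, 0, 4732 and 2384 bases in control 1 to 4. Ucp1 was thus marked in the same 3 control libraries as Retn and also in dnTCF4 1, where its coverage was above that of control 4.

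Rbp4, the plasma retinol carrier, had 316, 0, 220 and 0 covered bases in dnTCF4 1 to 4, and 0, 0, 3298 and 962 in control 1 to 4. Cidea, a droplet protein of brown fat related to Cidec, was the gene marked in more dnTCF4 than control libraries, with 2896, 0, 919 and 242 covered bases in dnTCF4 1 to 4, and 0, 0, 4417 and 2740 in control 1 to 4. With −log10 q of at least 2 it was marked in 1 dnTCF4 and 2 control libraries. Pnpla3, a lipase of lipid droplets, was marked in 2 libraries of each group. Gata3, which restrains adipogenesis in mouse preadipocytes and is a luminal factor in the mammary gland, had 3395, 0, 0 and 0 covered bases in dnTCF4 1 to 4, and 0, 0, 6199 and 3643 in control 1 to 4. Nrg4, a factor secreted by brown fat, was marked like Gata3 in 1 dnTCF4 and 2 control libraries. Cd36 had 3247, 0, 0 and 0 covered bases in dnTCF4 1 to 4, and 0, 293, 24100 and 13639 in control 1 to 4.

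On chromosome 8, the wider list has 10 genes, of which 4 were marked, where 22.3% of all chromosome 8 genes were marked in any library. These were Cdh13, Ucp1, Zfp423 and Lpl. Zfp423, a factor of preadipocyte commitment, was marked in dnTCF4 1 and in control 3 and control 4. Lpl, the lipoprotein lipase, was marked in 0 dnTCF4 libraries and in control 3 and control 4, with 2706 and 332 covered bases. Lpl and Adora1, an adenosine receptor gene on chromosome 1, were the 2 genes of the list with a peak in 0 dnTCF4 and at least 2 control libraries, a set that holds 2.00% of all genes.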

How the data were processed

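H3K27me3 was profiled by ChIPmentation (adapters inserted by transposase on bead-bound chromatin) in 4 dnTCF4 and 4 control libraries of mouse breast tumour cells. MACS2 2.1.2, Bowtie2 2.3.4.1, bedtools 2.28.0, Picard 2.20.2, SAMtools 1.2, cutadapt and Trim Galore, and the build mm10, are named in the submitters' processing notes. Caller options, and any use of IgG as its control, were not stated. The lowest −log10 q of a list ran from 1.01 in dnTCF4 1 to 1.06 in control 2. A called peak therefore need not have had a q under 0.05. The deposited lists have 9 columns, and peak names carry the library's name, so the authors called peaks per library. They hold the authors' score, a fold enrichment (a ratio over background), and the deposited −log10 p and −log10 q of each peak. They served only to rank, filter and describe peaks of 1 list.

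Gene positions and promoters came from RefSeq (GRCm38.p6, the same build), with every listed gene matched. A gene was marked when at least 1 base of a peak lay in its body extended by 2 kb. Marked libraries were compared with Fisher's exact test over all protein-coding genes and peak number with an exact permutation test over 70 assignments (Python 3.11.15, SciPy 1.17.1). Code was tested on simulated data. The genes named are the 8 genes, the 10 genes of the wider list marked in the most libraries (ties by alphabet, which took Gata3 before Nrg4 and Zfp423), marked genes near the 8, and genes with the pattern of Retn. Genes named outside this rule (Zfp423, Nrg4, Lpl, Adora1, unmarked long genes, the C/EBP and resistin-like genes and Stxbp2) were chosen after their values were seen. The members and lists were chosen with earlier results of these data known.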

Additional observations from a re-analysis of the deposited data

Results flagged for a closer look

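Results were marked for a closer look where 1 library of a group of 4 stood apart from the other 3 by Dixon's test. Of 32 groups of values examined, 13 were picked out. In 11 of them the other 3 libraries were at 0. There any value above 0 is picked out, however small, so nothing is read from those 11.

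Among dnTCF4 libraries, dnTCF4 1 stood apart for Retn with 50 kb to each side (192 bases under peaks), and for the extended bodies of Pnpla3 (2075 bases), Cd36 (3247 bases), Cdh13 (7843 bases), Ucp1 (2527 bases) and Gata3 (3395 bases). The list of dnTCF4 1 holds 21492 peaks, against 191, 4885 and 1838 in the others. dnTCF4 3 stood apart for Adipoq with 50 kb to each side (258 bases).

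Among control libraries, control 3 stood apart for the extended bodies of Lep (938 bases) and Plin1 (279 bases). With 50 kb to each side it stood apart for Adipoq (666 bases), Lep (1499 bases), Fabp4 (445 bases) and Plin1 (279 bases). The list of control 3 holds 54070 peaks, the most of any library.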

How the results depend on the processing

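Retn kept 0 dnTCF4 libraries under 14 of 15 alternatives and at least 2 control libraries under 14 of 15. The exceptions were the extension of 5 kb (1 dnTCF4 and 3 control libraries) and lists of equal length (0 and 1). Only the extension of 5 kb could raise the 0, since the other alternatives take away peaks, bases or libraries. Leaving out 1 library could not take the 3 control libraries below 2. These counts are therefore not read as stability of the Retn pattern.

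Of the 8 genes, 3 were marked in the reported setting, and 1 with −log10 q of at least 2, with lists of equal length (1838 peaks in each of 3 dnTCF4 and 2 control libraries) and without control 3; leaving out 1 library gave 1 to 3. Of the wider list, 20 genes were marked, and 13 with −log10 q of at least 2 and 11 with lists of equal length; leaving out 1 library gave 17 to 20.

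The set marked in dnTCF4 libraries only held 13 genes, and 8 with at least 500 bases of peak, 7 with no extension and 105 with lists of equal length. Leaving out 1 library gave 0 (without dnTCF4 1) to 79 (without control 3). The set marked in control libraries only held 433 genes, and 224 with −log10 q of at least 2 and 43 with lists of equal length, where it was the smaller set. Leaving out 1 library gave 2 (without control 3 or control 4) to 1534 (without dnTCF4 1). Fisher's exact test called 0 genes after adjustment under every alternative, which these numbers of libraries and genes fixed in advance. At an unadjusted p under 0.05 it called 0 to 2 genes, and the lowest adjusted p was 1 throughout.

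The difference in log10 peak number of -0.255 turned to 0.115 without dnTCF4 2 and to 0.107 without control 3, within a range of -0.594 to 0.115. With the replicate number as a block it was -0.255 (exact sign-flip p = 0.875), and the blocked sign test per gene called 0 genes. Over 4 pairs neither test can give a p under 0.125, so the 0 genes was fixed in advance. Same-numbered libraries had correlations from -0.679 to 0.612 and 0 of 4 dnTCF4 libraries correlated best with their own number. List length enters these values: dnTCF4 1, with a long list, was at 0.578 with control 3, also long. With control 1, which is short, it was at -0.679. A shared culture or batch cannot be read from them, so whether the numbers pair the libraries stays unknown.

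Among single genes the difference in number of libraries (dnTCF4 minus control) turned in some settings. With −log10 q of at least 2 it was -1 for Cidea and 1 for Cd36. With at least 500 bases of peak it was 1 for Ppargc1a. With lists of equal length it was 1 for Ppargc1a, Elovl3, Cd36 and Gata3. With whole lists of the same 5 libraries, a setting chosen after seeing the data, it was 1 for Ppargc1a, which was then marked in all 3 dnTCF4 and both control libraries. The cause was not tested.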
